A study of Bos taurus with 2 samples.

Results

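The genes described here make, break down and relay cyclic AMP in the testis: the adenylyl cyclases, the subunits of protein kinase A, the phosphodiesterases and the A-kinase anchoring proteins. They were chosen by name on the bovine array: every gene whose symbol began with ADCY, PRKAC or PRKAR, or was PDE or AKAP followed by a digit, with the sperm tail anchors AKAP3 and AKAP4 left out. This gave 53 of the 32428 gene names on the array, read by 118 of 51279 probes. Testis RNA of crossbred bulls (Holstein Friesian crosses) and of Zebu bulls (Tharparkar) was compared, all of them adult males aged 24 months with no treatment named in the labels. RNA of 3 bulls was pooled in each group and hybridised to 1 array per group, on the same slide, so that neither the spread between bulls nor that between arrays was measured and no test could be made. Both labels give the organism as Bos taurus, and the crossbred animals carry both kinds of ancestry in shares that differ between animals.

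Cyclic AMP is made from ATP by adenylyl cyclases, most of which sit in the plasma membrane and answer to hormone receptors through G proteins. It binds the regulatory subunits of protein kinase A and sets the catalytic subunits free. Phosphodiesterases end the signal, and anchoring proteins hold the kinase at a chosen place in the cell through its regulatory subunits. In the testis this pathway carries the luteinizing hormone signal in Leydig cells and the follicle-stimulating hormone signal in Sertoli cells, and in sperm it drives motility and capacitation.

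Probes are 60-base oligonucleotides, and their sequences are shown for the genes with a probe past the threshold used below, together with other probes of the same genes that differed less, so that the stretches of transcript read in each gene can be compared. Only probes with at least 1 forward reading frame free of stop codons, and judged to lie in coding sequence, are shown, in lower case throughout because no base is singled out. Positions are those of the array annotation on build HGSC Btau_3.1. The probes of PRKACB and ADCY9 are listed from the higher to the lower coordinate and the others in rising order, which gives the strand of the gene. The ADCY3, PDE6C and PRKACB intervals are longer than the probe because the probe joins bases on either side of an intron.

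PRKAR2A brightest probe, chr22:52084763-52084822: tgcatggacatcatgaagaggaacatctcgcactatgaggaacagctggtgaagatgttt

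PRKAR2A second probe, chr22:52064430-52064489: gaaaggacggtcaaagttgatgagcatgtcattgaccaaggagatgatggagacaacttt

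AKAP12 second probe, chr9:91781927-91781986: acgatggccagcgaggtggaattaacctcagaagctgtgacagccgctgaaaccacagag

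ADCY3 brightest probe, chr11:76557964-76558632: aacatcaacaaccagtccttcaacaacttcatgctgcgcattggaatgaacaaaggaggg

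ADCY9 brightest probe, chr25:3845990-3846049: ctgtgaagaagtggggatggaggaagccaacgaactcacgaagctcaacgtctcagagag

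ADCY9 second probe, chr25:3846312-3846371: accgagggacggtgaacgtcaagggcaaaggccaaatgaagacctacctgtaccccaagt

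PDE1A brightest probe, chr2:14811847-14811906: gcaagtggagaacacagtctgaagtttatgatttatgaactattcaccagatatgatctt

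PDE1A second probe, chr2:14899710-14899769: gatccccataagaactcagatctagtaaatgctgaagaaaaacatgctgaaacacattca

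PDE4A second probe, chr7:13448070-13448129: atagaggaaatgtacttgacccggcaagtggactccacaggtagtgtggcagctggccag

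PDE4A last probe, chr7:13443073-13443132: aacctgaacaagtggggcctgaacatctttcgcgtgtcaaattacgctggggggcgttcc

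PDE6C second probe, chr26:15434492-15439862: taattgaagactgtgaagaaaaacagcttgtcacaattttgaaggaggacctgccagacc

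PRKACB dim probe, chr3:63907520-63921643: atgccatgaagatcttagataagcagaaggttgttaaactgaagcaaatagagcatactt

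Levels are given as normalized log2 signal, that is the log2 processed spot signal minus the 75th percentile of its array, so that 0 is the 75th percentile itself. A difference is the crossbred level minus the Zebu level. It was counted as higher or lower when it reached 1.5 in size, a 2.83-fold ratio, with the brighter array well above background by the scanner software, said here to pass the background limit. Each gene was read from its brightest probe, and the other probes are given beside it. Where only 1 array passed the background limit, the difference is a bound, set against the higher of the dim value and the lowest signal that passed on that array (-5.78 on the crossbred and -5.94 on the Zebu array). Some brighter spots did not pass, such as an AKAP8 probe at -5.42 on the crossbred array and an AKAP5 probe at -5.48 on the Zebu array. The words "at least" below therefore refer to this bound as defined, which is not a strict limit. Counts of higher and lower were read from the measured difference, so a gene dim on 1 array can be counted while its bound is under 1.5, and the counts read from bounds are given beside them. Repeated spots of 1 probe, from 5962 probes that passed on both arrays, gave an SD of 0.33 for a difference, with 0.29 on the crossbred and 0.18 on the Zebu array. This SD is pooled over probes, and spots of the 2 patches described below were not left out. The median SD of a difference for a single probe was smaller, at 0.10. Different probes of 1 gene disagreed more, with an SD of 0.45 among the 24 cyclic AMP genes that had several measured probes and 0.51 among 8185 genes of the whole array. These errors are technical and say nothing of the spread between bulls.

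Of the 53 genes, 42 passed the background limit on both arrays, 3 on the Zebu array alone and 1 on the crossbred array alone. The remaining 7, namely ADCYAP1R1, AKAP5, AKAP6, PDE3A, PDE6B, PDE7B and PDE11A, did not pass on either array on their brightest probe. The spots that passed made up 72.03% of the non-control spots of the crossbred array and 74.30% of those of the Zebu array, and 75th percentiles of the signal were 1176 and 1233. A dark patch of the crossbred array covered 544 non-control spots and a bright patch 105, and none of the 122 spots of the cyclic AMP genes lay in either.

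**Figure D1:**
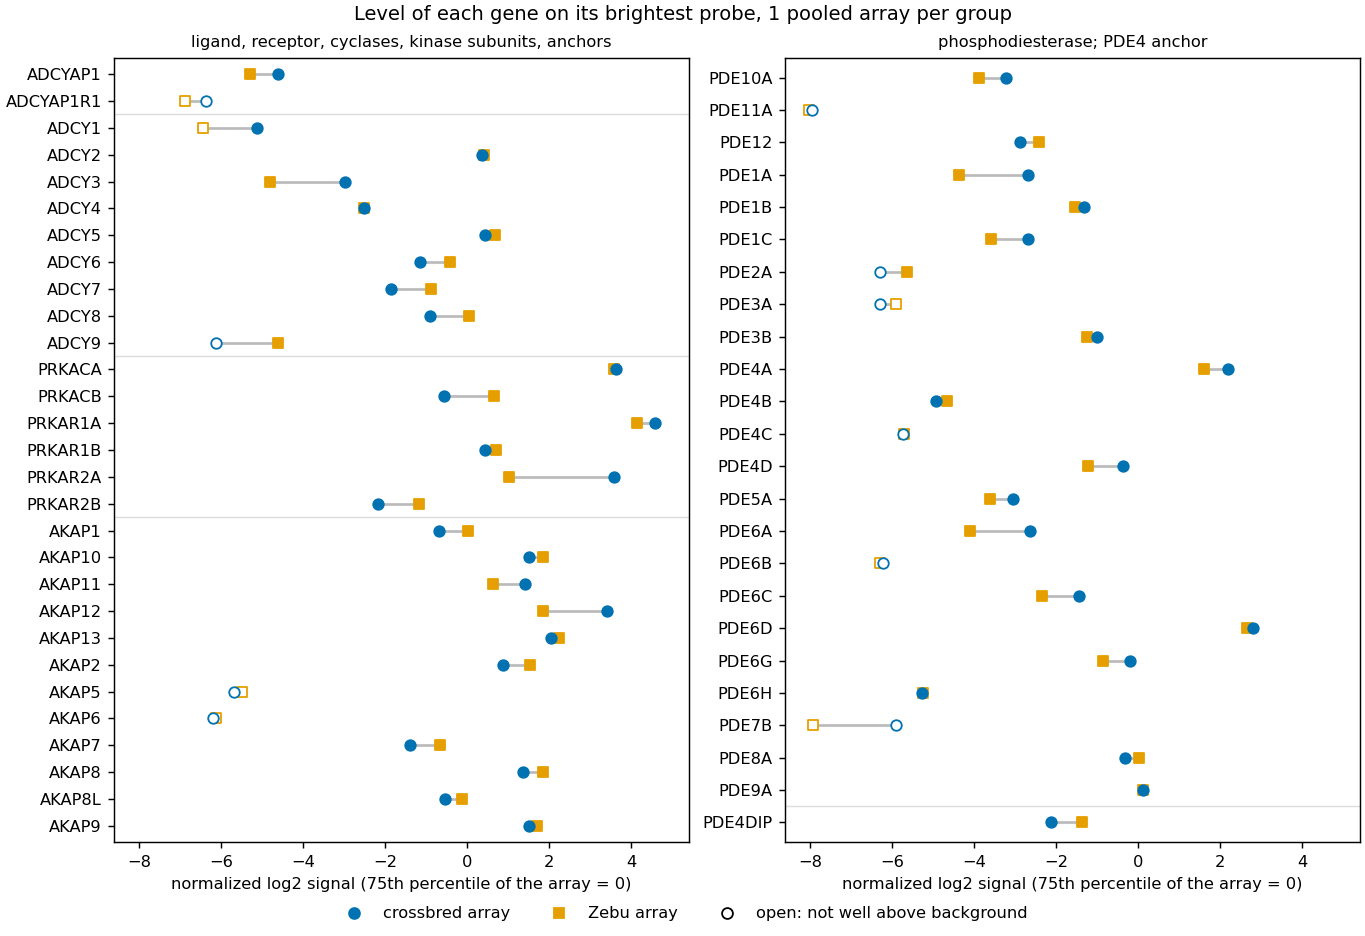
Normalized log2 signal (x axis) of each of the 53 genes (y axis) on its brightest probe, with the crossbred array as circles and the Zebu array as squares; open symbols were not well above background, and there are no error bars because each group is 1 array. PRKAR2A stands at 3.57 against 1.01, PRKACB at -0.57 against 0.65, and most other pairs lie close together.

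PRKAR2A, AKAP12, ADCY3 and PDE1A were higher in the crossbred testis by 1.5 or more, and ADCY9 was counted as lower. These 4 higher genes were 8.70% of the 46 detected, against 7.12% of all 24751 detected transcripts, and the 1 lower gene was 2.17% against 2.92%, so both shares lay near those of the whole array. The ADCY9 count rested on a measured difference of -1.53 against a crossbred value below the background limit, and its bound is -1.17. Read from bounds, the same 4 genes were higher and 0 were lower, against 6.61% and 2.05% of all detected transcripts. Probe by probe, 7 of 90 detected probes were higher, or 7.78% against 6.14% of all probes, and 2 were lower, or 2.22% against 2.99%. Both lower probes and 1 of the higher were dim on 1 array, and read from bounds 6 probes were higher and 0 lower, against 5.61% and 1.89% of all probes. Among the 42 genes measured on both arrays 20 were above 0 and 22 below, and 19 of them (45.2%) differed by under 0.5, against 52.2% of all such transcripts. The median difference was -0.025, beside -0.054 for all detected transcripts. Just inside the threshold lay AKAP12 at 1.56, and just outside it lay PDE6A at 1.46 on the higher side and PRKACB at -1.22 on the lower.

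**Figure D2:**
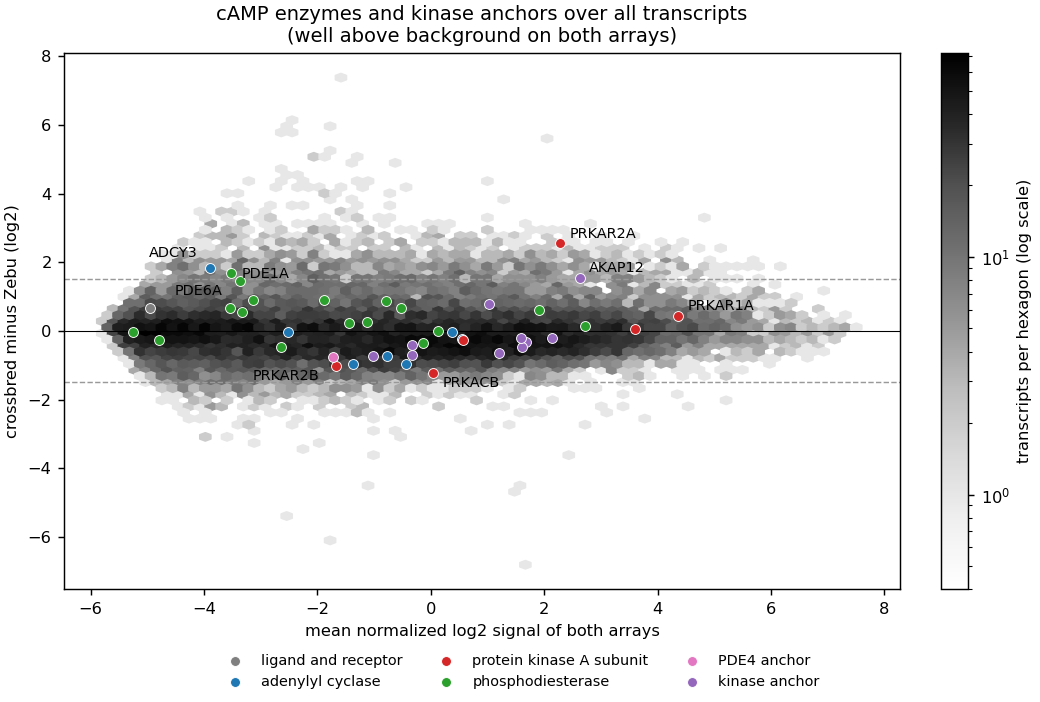
Difference between the arrays (y axis, log2) against the mean normalized log2 signal (x axis) for the 42 genes that passed the background limit on both, coloured by role, over all 22842 such transcripts in grey; dashed lines mark 1.5 in size. PRKAR2A, at 2.56, lies among the higher transcripts of its signal level, while most of the other genes lie within the dense grey band.

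By role the medians lay on both sides of 0, as a description without a test. The 9 adenylyl cyclases had a median of -0.24, the 6 kinase subunits of -0.11, the 19 detected phosphodiesterases of 0.25 and the 10 detected anchors of -0.37. Of those measured on each array, 6 of 7 cyclases and 8 of 10 anchors were below 0, whereas 13 of 17 phosphodiesterases were above it. The phosphodiesterase median was 0.54 over those 17. Of all transcripts measured on each array 47.7% were above 0. The counts by sign include values close to 0, such as ADCY2 at -0.041, ADCY4 at -0.015 and PDE9A at 0.0054. With an intensity-dependent normalization ADCY2 and ADCY4 stood at 0.058 and 0.075. The counts by sign also include ADCY2, AKAP7, AKAP11, PDE3B, PDE5A and PDE12, whose probes disagreed in sign. Within the spot SD of 0.33 lay, among others, PDE6D at 0.15 and PDE1B at 0.22 above 0, and AKAP9 at -0.19 and AKAP13 at -0.21 below it.

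**Figure D3:**
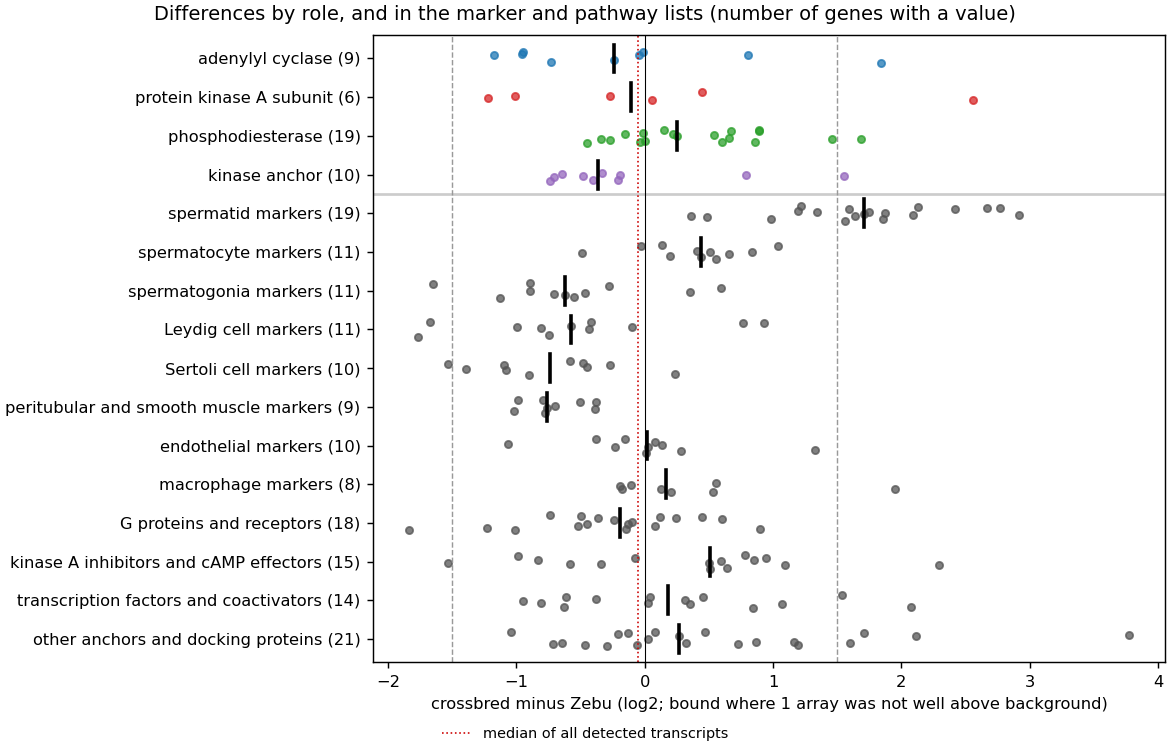
Difference between the arrays (x axis, log2) for each gene of the 4 roles and of the marker and pathway lists (y axis, with the number of genes that had a value); black bars are medians, the dotted line is the median of all detected transcripts at -0.054 and dashed lines mark 1.5 in size. The phosphodiesterases lean to the right and the anchors to the left, with AKAP12 far from the other anchors, and the spermatid markers lie farther to the right than any of the 4 roles.

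All of these genes were read in a tissue whose cell type markers also differed. Of 19 spermatid markers on the array, all were above 0. Of these, 13 (68.4%) passed 1.5, beside 7.12% of all detected transcripts on the higher side. Their median was 1.71, with a summed normalized signal of 938 on the crossbred and 417 on the Zebu array. The marker lists were chosen with earlier results of these data known. Several spermatid genes, among them SPEM1, ODF1 and TNP2, had already been named as higher by the study from these arrays. The rise of this list is therefore no independent evidence. The study had likewise named CYP17A1, HSD3B1, DHH and SALL4 as lower from these arrays. The falls of the Leydig, Sertoli and spermatogonia lists given below are therefore no independent evidence either. The 11 spermatocyte markers had a median of 0.44 (summed signal 89.0 and 62.2). The 11 detected spermatogonia markers had a median of -0.62 (34.5 and 48.7), the 11 Leydig cell markers of -0.57 (102 and 150) and the 10 detected Sertoli cell markers of -0.74 (166.8 and 255.4). All 9 peritubular and smooth muscle markers were below 0, with a median of -0.76 (45.6 and 76.4). The endothelial median was 0.016 (7.07 and 4.31) and the macrophage median 0.17 (30.7 and 21.8). These sums lean on CLDN5 (2.22 and 0.89) and AIF1 (3.09 and 1.14). Each was the brightest of its list on the crossbred array and had its largest rise. Of the endothelial markers measured on both arrays 6 were above 0 and 3 below, and of the macrophage markers 5 and 3. FGFR3 and LIN28A of the spermatogonia list did not pass on either array, nor did INHBB and KITLG among the Sertoli markers. In whole tissue, fewer cells of a type and less RNA per cell cannot be told apart, and the part of cell make-up in the differences below was not tested.

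Among the adenylyl cyclases, 4 of 9 were lower in the crossbred testis by more than the spot SD of 0.33, and 2 were higher. ADCY3, best known from olfactory signalling and from primary cilia, had the largest difference, with levels of -2.97 on the crossbred and -4.82 on the Zebu array, 1.84 apart, which is 3.58-fold. The second ADCY3 probe read -4.08 and -4.21, a difference of 0.13, so that only 1 of its probes showed the gap. With the probes averaged ADCY3 stood at 0.99, and with the normexp background correction at 1.12, both short of the threshold.

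ADCY9, a widely expressed cyclase, ran the other way on its brightest probe, at -6.13 on the crossbred array, below the background limit, and -4.60 on the Zebu array. By the bound defined above, that is at least 2.26-fold lower in the crossbred testis. Its second probe, with the sequence shown above from an adjoining part of the transcript, passed on both arrays at -5.43 and -5.32, a difference of -0.11. The probes of ADCY9 therefore disagreed, and the count of 1 lower gene rested on the brightest alone.

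ADCY7 and ADCY8, the latter a calmodulin-stimulated cyclase, were each read by 1 probe. ADCY7 stood at -1.85 and -0.89 and ADCY8 at -0.92 and 0.031 on the crossbred and Zebu arrays. Their differences were -0.96 and -0.95, close to a 2-fold ratio and below the threshold. ADCY5 and ADCY6 are the calcium-inhibited pair. ADCY6 stood at -1.14 and -0.41 on its brightest probe, a difference of -0.73, and its other detected probe gave -1.38, at -4.01 and -2.63. ADCY5 stood at 0.44 and 0.68, a difference of -0.24, and its dimmer probe gave -0.96, at -4.48 and -3.52. In both genes the dimmer probe thus showed the larger difference.

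ADCY2, a cyclase stimulated by G protein beta-gamma subunits, stood at 0.36 and 0.40, with detected probes from -0.17 to 0.10. ADCY4 stood at -2.52 and -2.51, and its probes gave -0.015 and -0.0023. ADCY1, a calmodulin-stimulated cyclase of nerve cells, passed on the crossbred array alone, at -5.13 against -6.45, or at least 1.75-fold higher. No value is given for the soluble cyclase of sperm, ADCY10, which was not analysed here. The peptide ADCYAP1 (PACAP), which stimulates cyclases through its receptor, was dim at -4.62 and -5.29, a difference of 0.67, and its second probe did not pass on either array. Neither probe of the receptor ADCYAP1R1 passed.

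The protein kinase A subunits held the largest difference of the whole group. PRKAR2A, the type II alpha regulatory subunit through which many anchors bind the kinase, stood at 3.57 and 1.01 on the crossbred and Zebu arrays, a difference of 2.56 or 5.89-fold. Its second probe stood at 1.68 and 0.044, a difference of 1.64 or 3.11-fold. Both probes, whose sequences are shown above and lie apart on chromosome 22, passed the threshold, and PRKAR2A was the only one of the 53 genes for which 2 probes did. Under the 12 ways of processing the difference ranged from 2.10 to 2.58. The median difference of the 18 spots nearest to each PRKAR2A spot was 0.37 and 0.20.

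The other regulatory subunits did not show this difference. PRKAR2B, the type II beta subunit, was lower at -2.18 and -1.17, a difference of -1.01 on its only probe. PRKAR1A, the type I alpha subunit, stood at 4.59 and 4.14, a difference of 0.45, and its other probes gave 0.57 and 0.43. Of those 3 probes 2 share 51 bases and are not independent readings. PRKAR1B stood at 0.43 and 0.71, a difference of -0.27. The type I alpha values lay close together, with an SD of 0.076, but the overlapping probes make this SD a weak measure of precision. The PRKAR1A difference was under the threshold, and after quantile normalization it was 0.24, under the spot SD of 0.33.

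The catalytic subunits separated as well. PRKACA, the main catalytic subunit and the one with a sperm isoform, stood at 3.62 and 3.57, a difference of 0.056, with 0.026 and 0.15 on its other probes. PRKACB stood at -0.57 and 0.65, a difference of -1.22 or 2.33-fold lower. A second PRKACB probe of the same transcript gave -1.17, at -3.29 and -2.11. The remaining 3 belong to another transcript model and were dim. The probe shown above gave -0.61, at -5.68 and -5.07. Another stood at -6.97 on the crossbred array, below the background limit, and at -5.02 on the Zebu array, which is at least 1.69-fold lower, the measured difference being -1.95 against that dim value. The last ran the other way, at -5.06 against -5.83, or at least 1.70-fold higher in the crossbred testis. Thus 4 of 5 PRKACB probes were lower, including the one dim on the crossbred array, and its brightest and second probes agreed. The mean of all PRKACB probes was -0.60 and the median of its measured probes -1.17.

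**Figure D4:**
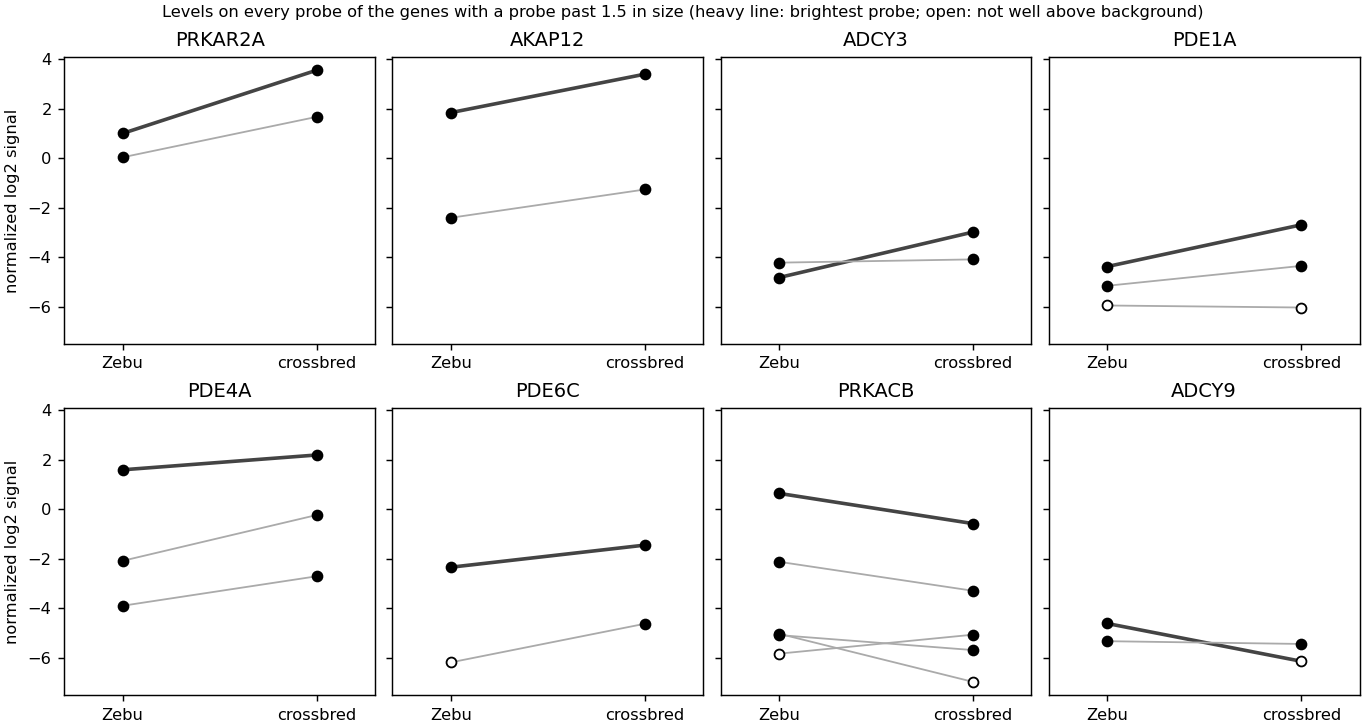
Normalized log2 signal (y axis) on the Zebu and crossbred arrays (x axis) for every probe of the 8 genes with a probe past 1.5 in size; the heavy line is the brightest probe, open points did not pass the background limit, and there are no error bars because each point is the level on 1 array. Both PRKAR2A lines rise steeply, whereas ADCY3 and ADCY9 each have 1 steep and 1 nearly flat line.

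Among the phosphodiesterases, PDE1A was the only one past the threshold on its brightest probe. It belongs to the calmodulin-activated PDE1 family. PDE1A stood at -2.68 and -4.37, a difference of 1.69 or 3.22-fold. Its second probe gave 0.80, at -4.34 and -5.15, and the third, from farther along the transcript, did not pass at -6.03 and -5.94. Higher signal of PDE1A was thus seen on both measured probes and passed the threshold on 1. With the normexp correction the brightest probe gave 1.04, and the mean of the measured probes was 1.25. PDE1C gave 0.89 on its only probe, under the threshold, and PDE1B gave 0.22, within the spot SD.

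The PDE4 enzymes degrade cyclic AMP and not cyclic GMP. PDE4A stood, on the probe nearest the transcript end, at 2.20 and 1.60, a difference of 0.60. Its second probe stood at -0.22 and -2.08, a difference of 1.85 or 3.61-fold, and the third at -2.70 and -3.89, a difference of 1.19. All 3 PDE4A probes were therefore higher in the crossbred testis, the dimmer ones by more, and their mean was 1.22. PDE4D gave 0.86, at -0.36 and -1.23, on its only detected probe. PDE4B was dim at -4.93 and -4.66, a difference of -0.27, and its other 2 probes did not pass. PDE4C was at -5.72 and -5.70 and passed on the Zebu array alone.

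The cyclic GMP enzymes, which the naming rule also takes in, were mostly above 0, with 6 of 7 measured members positive and a median of 0.54. PDE5A stood at -3.06 and -3.60, a difference of 0.54, but its probes ran from -0.52 to 0.54. The PDE6 genes are known from the photoreceptor. PDE6A gave 1.46 at -2.64 and -4.11, just under the threshold, while its second probe did not pass. PDE6C gave 0.89, at -1.44 and -2.33, and its second probe passed on the crossbred array alone at -4.62 against -6.18, or at least 2.503-fold higher. The inhibitory subunit PDE6G gave 0.67, PDE6H -0.034, and the prenyl-binding subunit PDE6D 0.15. PDE9A gave 0.0054 and 0.15 on its probes.

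Of the rest, PDE8A, a high-affinity cyclic AMP enzyme of Leydig cells, was lower on all 3 probes, at -0.34, -0.47 and -0.67. Its brightest probe stood at -0.31 and 0.033. PDE3B, inhibited by cyclic GMP, stood at -1.005 and -1.26, a difference of 0.25, with -0.43 on the second probe and at least 1.61-fold higher on the third. PDE10A gave 0.66 on its only probe, and PDE12, a mitochondrial enzyme that is not a cyclic nucleotide phosphodiesterase, gave -0.45 on its brightest probe and 0.043 on the second. PDE2A passed on the Zebu array alone, at -6.30 against -5.63, or at least 1.11-fold lower. PDE4DIP, a centrosomal protein that binds PDE4D, stood at -2.11 and -1.36, a difference of -0.75, while 2 other probes gave 0.10 and 0.23 and a further 3 did not pass.

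**Figure D5:**
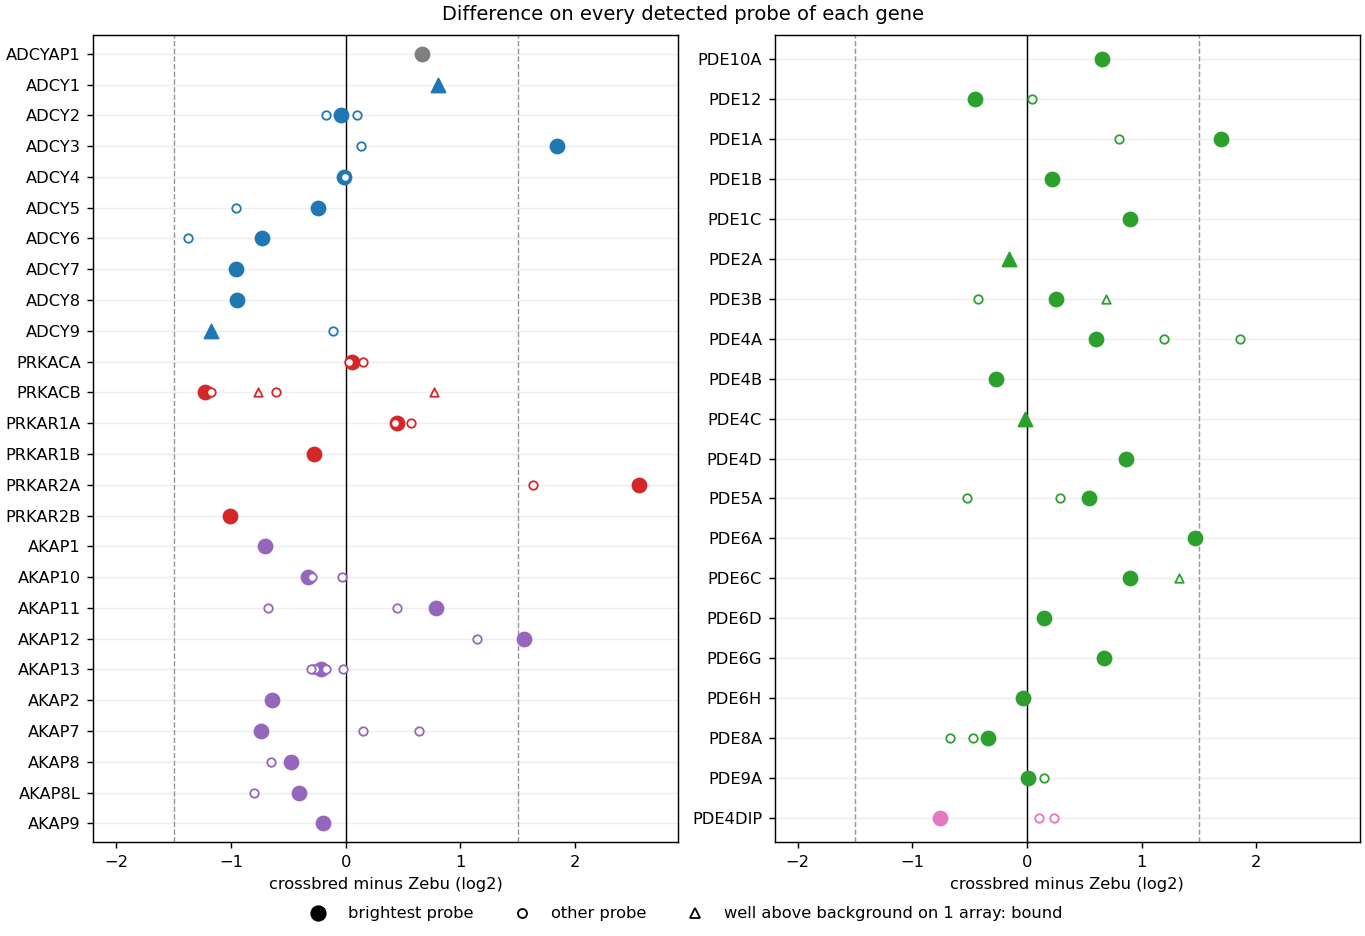
Difference between the arrays (x axis, log2) on every detected probe of each gene (y axis), with large filled symbols for the brightest probe, small open ones for the others, and triangles for bounds where 1 array was not well above background; dashed lines mark 1.5 in size. Both PRKAR2A probes and no other complete pair lie beyond the upper line, and the 6 AKAP13 probes lie between -0.30 and -0.025.

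On their brightest probes 8 of the 10 measured anchoring proteins were below 0 and AKAP11 and AKAP12 above it, and none passed the threshold on the lower side. AKAP12 (gravin), a large membrane-associated scaffold that also binds protein kinase C, stood at 3.41 and 1.85, a difference of 1.56 or 2.94-fold. Its second probe, shown above, stood at -1.26 and -2.40, a difference of 1.14 or 2.21-fold. Both AKAP12 probes were thus higher, and the brighter passed the threshold narrowly: it gave 1.46 after quantile normalization and 1.47 after normexp correction, and the mean of the probes was 1.35. The 18 spots nearest to the brighter AKAP12 spot had a median difference of 0.22.

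AKAP13, a large scaffold protein, was read by 6 probes that gave values from -0.30 to -0.025 and an SD of 0.10. Its brightest probe stood at 2.04 and 2.25. AKAP10 gave -0.33 at 1.51 and 1.84, with its other probes at -0.29 and -0.029. The nuclear anchor AKAP8 gave -0.48 at 1.37 and 1.85 and -0.65 on a second probe, whose 18 nearest spots had a median of 1.25. AKAP1 of the mitochondrial outer membrane, AKAP2, AKAP8L and AKAP9 were between -0.70 and -0.19 on their brightest probes.

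AKAP7 and AKAP11 could not be assigned a direction. AKAP7 stood at -1.39 and -0.66, a difference of -0.74, but its other probes gave 0.15 and 0.64. AKAP11 stood at 1.42 and 0.63, a difference of 0.79, with 0.45 on a probe that shares 40 of its bases and -0.67 on the third. In each the probes lay on both sides of 0, as they did in 7 of the 24 genes with several measured probes. All measured probes had the same sign in 17 of those 24 genes (70.8%), and in 66.8% of 8185 genes over the whole array. Within a transcript, the probe farther along minus the earlier one gave a median of 0.089 over 18 transcripts of these genes and -0.12 over 5413 transcripts of the array, for probes at least 500 bases apart.

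Other genes of the pathway were taken from 4 lists with 76 measured names, of which 68 were detected, 7 were higher and 2 lower by 1.5 or more, with a median of 0.062. These are 10.3% and 2.94% of the detected, beside 7.12% and 2.92% of all transcripts. The lists were chosen with earlier results of these data known. Some of their higher genes, CREM among them, had already been named as higher by the study from these arrays. The shares are therefore no independent evidence. Among 18 detected G proteins and receptors only VIPR2, a receptor for vasoactive intestinal peptide and ADCYAP1, passed, at -1.50 and 0.34, a difference of -1.84. Their median was -0.19. Of 15 detected kinase inhibitors and other cyclic AMP effectors, the channel subunit CNGB1 was higher at 0.52 and -1.77, a difference of 2.29, and RAPGEF4 (Epac2), an exchange factor opened by cyclic AMP, was lower at -4.84 and -3.31, a difference of -1.53. Of 14 transcription factors and coactivators, CREM, the cyclic AMP-responsive factor needed for spermatid development, was higher at 4.31 and 2.77, a difference of 1.54. FHL5 (ACT), a coactivator of CREM in germ cells, was higher at 3.28 and 1.20, a difference of 2.08. CNGB1 has 5 probes, RAPGEF4 4, CREM 3 and FHL5 2, and only the brightest of each is given. RAPGEF4 and CREM passed the threshold narrowly.

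Of 21 other anchors and docking proteins, 4 were higher (19.05%, beside 7.12% of all transcripts) and 0 lower (beside 2.92%). AKAP4, the main fibrous sheath protein of the sperm tail, stood at 4.95 and 3.24, a difference of 1.71. ROPN1, a sperm tail protein that docks to anchors, gave 1.60 at 4.54 and 2.94. SPHKAP gave 2.12 at 1.25 and -0.87 on the brighter of its 2 probes. AKAP4 is also 1 of the spermatid markers, so these counts overlap. The study had already named AKAP4 and ROPN1 as higher from these arrays, so the share of 19.05% is no independent evidence. PALM2 gave the largest difference of the lists, 3.77, at -1.52 and -5.29 on its only probe, the Zebu level being close to the background limit. Current RefSeq annotation (assembly ARS-UCD2.0) lists AKAP2 as a synonym of PALM2. The array's AKAP2 probe, at 0.87 and 1.52 with a difference of -0.65, and its PALM2 probe went opposite ways. Whether they read the same transcript was not examined, since probes were not re-aligned. The other 52 gene names matched a current symbol.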

How the data were processed

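Total RNA of testis was labelled with Cy3 after amplification from an oligo dT primer and hybridised to Agilent bovine arrays, 1 array of RNA pooled from 3 bulls per group. Per the file headers, the authors quantified spots with Feature Extraction 11.5. The deposited scanner files give processed signal intensity, which is background-subtracted, for 61657 non-control spots. The authors also deposited log2 values after a 75th percentile shift, which matched the scale, centring and direction of the values computed here (Pearson r of 0.999 and 1.00 over 51279 probes, medians of -3.00 and -3.01).

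Here 13 outlier spots were left out and no non-control spot was saturated. Spots of 1 probe were averaged on the log2 scale, and each array was shifted so that the 75th percentile of its non-control probes was 0. The brightest probe by mean log2 signal stood for a gene. A difference was called at 1.5 in size. Named with values were every cyclase and kinase subunit, ADCYAP1 and every gene with a probe past 1.5. So were the phosphodiesterases and anchors with 3 or more probes, and some others to show their family. Genes that passed on neither array, among them ADCYAP1R1 and AKAP6, were named without values. Each group was 1 array, so no p-value was computed, and precision is limited by having 2 arrays. Alternatives used limma 3.58.1 in R 4.3.3 (normexp with offset 50, quantile) and statsmodels 0.14.6 (loess). The chain was tested on simulated data. The genes, the marker lists and the pathway lists were chosen with earlier results of these data known. Symbols were matched to RefSeq names of ARS-UCD2.0. No coordinates were moved between builds.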

Additional observations from a re-analysis of the deposited data

How the results depend on the processing

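No paired analysis was possible because each group is 1 array, and the slide could not be fitted as a block because both arrays lie on the same slide. Against 4 genes higher and 1 lower, the normexp correction, the mean of all probes, the median of measured probes and a threshold of 2 each left 1 higher (PRKAR2A) and 0 lower. Quantile normalization left 3 higher, without AKAP12, and 0 lower. The use only of probes well above background on both arrays, and calls read from bounds, an alternative chosen after seeing the data, each left 4 higher and 0 lower. A threshold of 1 gave 6 higher and 3 lower. At a linear fold of 1.5 there were 14 higher and 11 lower, PDE2A among the lower by its measured difference of -0.67 against a dim value, its bound being -0.15. No p-value stands behind these counts of 0, since nothing was tested. The mean of all probes moved the cyclase median from -0.24 to -0.60, and no other median of a role moved by more than the spot SD of 0.33. Over all transcripts the normexp correction raised the share of higher among called from 70.9% to 85.9% and changed the counts from 1762 higher and 722 lower to 1030 and 169. At a linear fold of 1.5 these counts were 5290 and 5504. Of the single gene differences, 30 of 497 alternative values moved by more than the spot SD, 21 of them where several probes were averaged or their median taken. Reading the probe with the highest linear signal, also chosen after seeing the data, changed no call among the cyclic AMP genes. The weakest values are those near -5 to -6, close to the background limit, where ADCY1, ADCY9, PDE2A and PDE4C lie. The causes were not tested.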

Other observations

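Some probes carry a transcript identifier in place of a symbol but are described on the array as members of the same families. All 8 probes described as AKAP9, the centrosomal and Golgi anchor, passed the background limit on each array and were lower in the crossbred testis, from -0.84 to -0.44 with a median of -0.53, beside -0.19 for the probe named AKAP9. The probe described as PDE7A gave 0.38, at -3.23 and -3.62. That described as PDE8B passed on the Zebu array alone, at -5.94 against -4.75, or at least 2.04-fold lower in the crossbred testis. The probe described as AKAP17A gave 0.019.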
